A study of Mus musculus with 8 samples.

Results

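Genes that mouse liver uses before birth and then shuts down were examined in adult livers depleted of HNF6, together with Spink1, which encodes a secreted inhibitor of trypsin. The 10 genes were the fetal serum protein gene Afp, the imprinted growth genes H19, Igf2 and Dlk1, the oncofetal surface and RNA-binding protein genes Gpc3, Cd24a and Igf2bp3, the postnatal repressors Zbtb20 and Zhx2, and Spink1. Of these, 9 had a probe set that the platform annotation paired with their symbol, out of 19540 genes measured, and H19 was not analysed here. Where a gene had more than 1 such probe set, the brightest by mean over all arrays stood for it. The fetal genes were chosen by their known biology with results of these data in view. Spink1 was chosen by its measured log2 change between these same groups, so its values are a description.

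The study compared 4 arrays of wild-type liver (WT) with 4 arrays of HNF6-depleted liver (HNF6KO), all from male C57B/6 mice aged 12 weeks, on normal chow, housed with a normal schedule of light and dark, and taken at ZT10 (10 h after lights on), which the design gives as 5 pm. Treatment of any other kind is not named in the labels for either group. The labels name neither the allele nor the cell type in which HNF6 was removed, and they leave unsaid if each array is a different animal, so the p-values cover the spread among these samples, which may be technical. HNF6, a homeodomain transcription factor of liver, is the product of Onecut1, whose transcript was lower on each HNF6KO array (8.67 to 9.32) than on any WT array (9.87 to 10.52) on the log2 scale. Its log2 change of -1.32 ± 0.18 (SE, n = 4 per group, limma adjusted p = 0.0273) was -0.83 within arrays 1 and 2 (adjusted p = 0.171) and -1.80 within arrays 3 and 4. That call was lost without WT array 1, 3 or 4 or HNF6KO array 3 or 4 (adjusted p = 0.0633 to 0.0954). Albumin, the defining hepatocyte transcript, averaged 14.01, and the highest value in the data, 14.11, was its own. Of the 12 measured hepatocyte markers, 0 lay below the array median on all arrays.

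The fetal liver programme is known from mouse genetics. Afp, H19 and Gpc3 are transcribed strongly in fetal hepatocytes and silenced within weeks of birth. The zinc finger protein ZBTB20 represses Afp directly after birth, and ZHX2 was found as the gene behind a mouse strain with persistent Afp and H19. HNF6 itself acts in the fetal liver, where it takes part in the choice between the hepatocyte and the biliary fate, and it persists in adult hepatocytes.

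Promoter windows of 300 bases around the start of transcription were in the RefSeq table (build GRCm38.p6) for 6 of the genes, in 9 windows. Spink1 was not among these 6, so its promoter was not searched. The core letters bound by HNF6, ATTGAT, were searched on both strands, and so was GTTAAT, the first letters of the HNF1 element for which the Afp promoter is known. The first motif was in 1 of the 9 windows, that of Zbtb20, against 7.54% of all 32851 windows. The second was in 1 of the 9 windows, that of Afp, and in 7.10% of all windows. It was chosen for the known Afp element, so its match in Afp was fixed in advance and is a description. The motifs do not overlap each other in these windows, and a match is a string of letters, not a measured binding site. The 250 bases before the start are shown for these genes because they are the fetal gene and the repressor on which the comparison of silencing turns, with the motif in capitals, for Afp at chr5:90490464-90490713 and for Zbtb20 at chr16:43247034-43247283, both on the plus strand.
Afp: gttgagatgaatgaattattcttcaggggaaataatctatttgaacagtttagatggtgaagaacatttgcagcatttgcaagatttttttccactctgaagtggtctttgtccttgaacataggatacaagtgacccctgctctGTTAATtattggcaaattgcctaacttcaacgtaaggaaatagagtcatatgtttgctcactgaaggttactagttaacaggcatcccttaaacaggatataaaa
Zbtb20: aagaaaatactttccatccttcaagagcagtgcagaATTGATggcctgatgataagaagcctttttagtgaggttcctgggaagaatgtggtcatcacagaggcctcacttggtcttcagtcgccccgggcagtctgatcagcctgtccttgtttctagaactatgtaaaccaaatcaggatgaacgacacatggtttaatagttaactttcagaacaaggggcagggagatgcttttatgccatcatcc

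The classical fetal genes were not detectably higher in HNF6KO, and most of them lay in the dim part of the arrays in both groups. Of the 9 measured genes, Spink1, Afp, Igf2, Cd24a and Igf2bp3 were below the array median on all 8 arrays, Gpc3 was below it on 7, and Dlk1, Zbtb20 and Zhx2 were above it on all 8. The deposited table holds no detection call, so whether a dim gene is expressed at all is not known from it, and a fold change near background is understated. Across all genes, limma with Benjamini-Hochberg adjustment called 0.399% at an adjusted p of 0.05. Of the 8 genes besides Spink1, 0 passed, 1 was higher (Cd24a) and 1 lower (Zhx2) at an unadjusted p of 0.05, a level that 9.51% of all genes reached. The groups did not overlap for Spink1 and for Zhx2, and 5.67% of all genes showed such a separation. The median log2 change of these 8 genes was 0.018, against -0.015 over all genes. In bulk tissue, fewer cells of a type and less RNA per cell cannot be told apart.

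**Figure D1:**
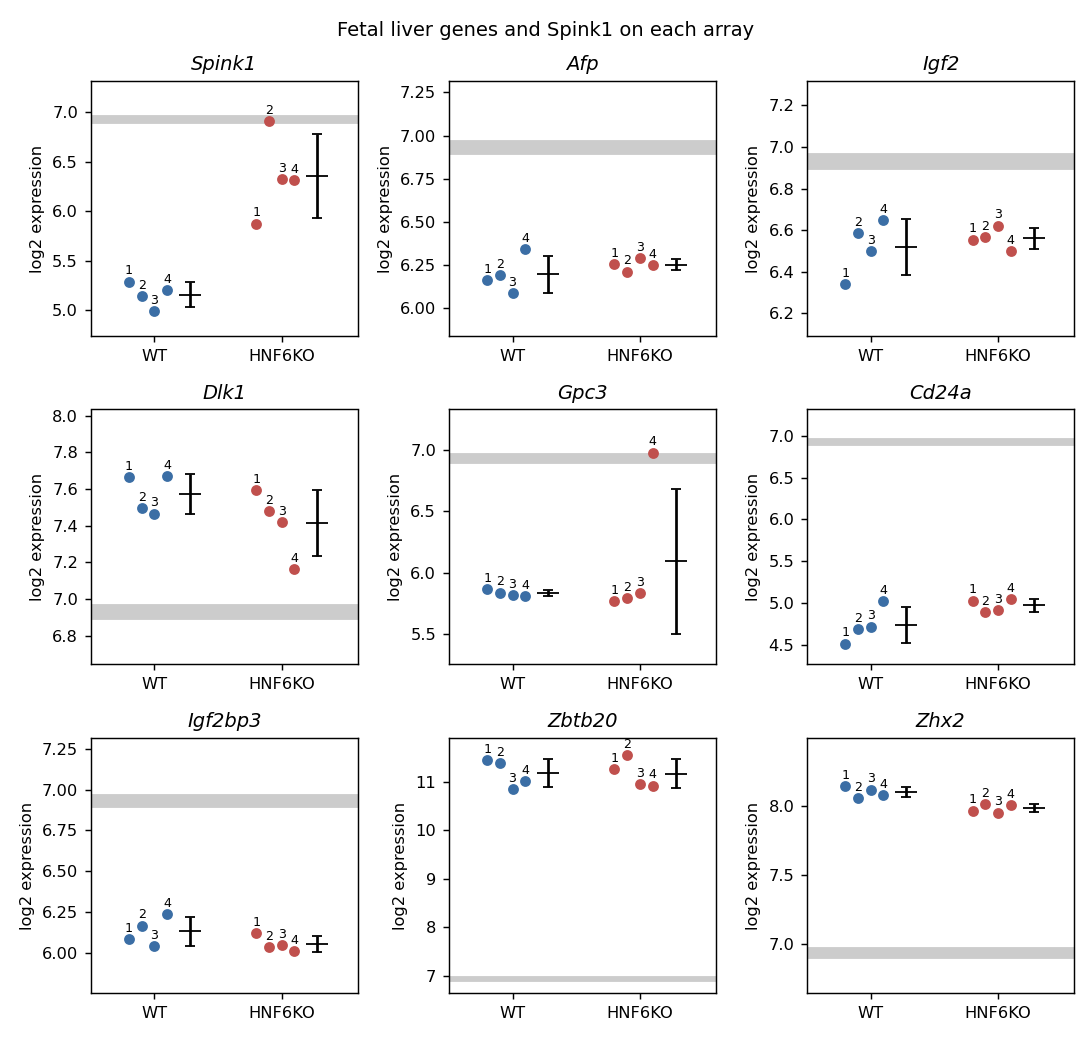
Log2 expression (vertical axis) of the 9 measured genes on the 4 WT arrays (blue) and the 4 HNF6KO arrays (red), numbered by array, with the group mean and SD in black and the range of the array medians as a grey band. Spink1 has all 4 HNF6KO arrays above the WT arrays, Gpc3 stands apart on HNF6KO array 4 at 6.98, and Afp stays between 6.09 and 6.34 on all arrays.

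Spink1 was higher on all 4 HNF6KO arrays. It encodes the small protease inhibitor that keeps trypsin inactive in the pancreas, and in mouse it is also known as Spink3. In WT, arrays 1 to 4 read 5.29, 5.14, 4.99 and 5.20 on the log2 scale, and in HNF6KO they read 5.87, 6.91, 6.33 and 6.32. The lowest HNF6KO array was above the highest WT array, and the HNF6KO arrays were spread more widely. The group means were 5.15 ± 0.13 in WT and 6.36 ± 0.42 in HNF6KO (SD, n = 4), a difference of 1.20 ± 0.18 (SE) with a 95% interval of 0.78 to 1.62, or 2.30-fold (1.72 to 3.08). These means stood at the 13.7th percentile of all genes in WT and the 37.5th in HNF6KO. Of the 78 genes past the threshold, 5 were below the median of all genes in both groups, and 0 had a lower WT mean than Spink1. The difference was of like size within arrays 1 and 2 (1.18) and within arrays 3 and 4 (1.23). It ran from 1.02 to 1.36 when each array was left out in turn. Spink1 was chosen by this difference in these same arrays, so the interval and these sizes are a description.

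The side of the threshold on which Spink1 fell was less steady than its size. Its adjusted p in limma was 0.0404, which, like those that follow, is a description, since Spink1 was chosen by its change. It became 0.106, 0.164, 0.125 and 0.0878 without WT arrays 1 to 4 in turn, 0.112 without HNF6KO array 3 and 0.0960 without HNF6KO array 4. It was 0.0181 without HNF6KO array 1 and 0.0215 without HNF6KO array 2, the arrays with its lowest and highest HNF6KO values. Median centring (0.0556) and an intensity trend with robust variances (0.0530) also ended the call.

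**Figure D2:**
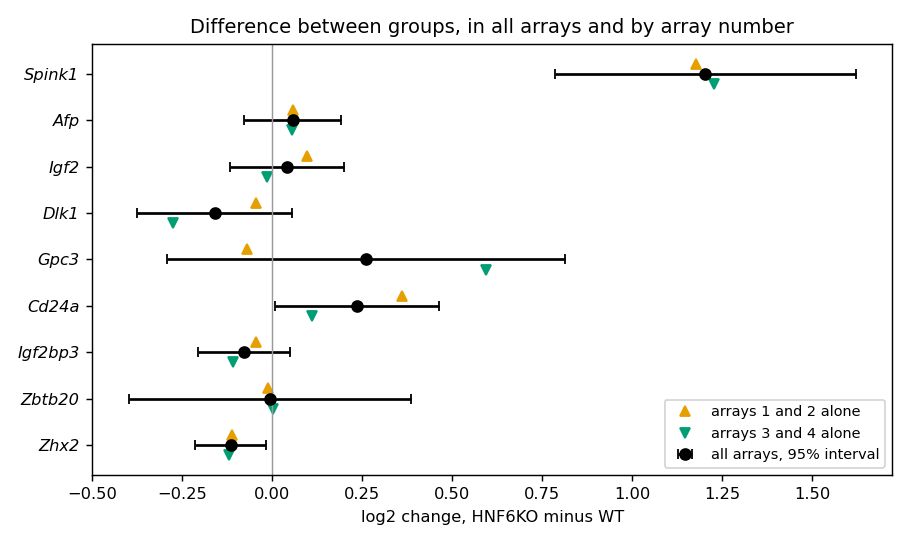
Log2 change (HNF6KO minus WT, horizontal axis) of each gene over all 8 arrays with its 95% interval (black), within arrays 1 and 2 (orange) and within arrays 3 and 4 (green). Spink1 lies at 1.20 with all 3 values close together, whereas Gpc3 lies at -0.07 within arrays 1 and 2 and at 0.59 within arrays 3 and 4.

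Afp encodes alpha-fetoprotein, the main serum protein of the fetus. It read 6.16, 6.19, 6.09 and 6.34 in WT and 6.25, 6.21, 6.29 and 6.25 in HNF6KO, in array order on the log2 scale. The groups overlapped, with the highest and lowest values both in WT. The difference was 0.06 ± 0.06 (SE; limma adjusted p = 0.856), and its 95% interval of -0.08 to 0.19 corresponds to 0.946-fold to 1.14-fold. Its relatives in the albumin gene family did not pass either. The log2 change was 0.08 ± 0.04 for Alb (adjusted p = 0.644), which had the sign turned under quantile normalization (-0.017), and -0.07 ± 0.13 for Afm, encoding afamin (adjusted p = 0.935). Alb was higher on each HNF6KO array (14.00 to 14.11) than on any WT array (13.96 to 13.98). These values lie at the top of the data, whose highest value, 14.11, is that of Alb itself on HNF6KO array 3. Of all genes, 5.67% showed such a separation.

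The repressors of Afp were measured well above the array median. Zhx2 read 8.14, 8.06, 8.12 and 8.08 in WT and 7.97, 8.01, 7.95 and 8.01 in HNF6KO, in array order. Each HNF6KO array was below each WT array, by a small margin and with little spread in either group. The log2 change was -0.12 ± 0.04 (SE, 95% interval -0.21 to -0.02), or -0.11 within arrays 1 and 2 and -0.12 within arrays 3 and 4. It did not pass over all genes (limma adjusted p = 0.429, unadjusted p = 0.0266), and its adjusted p ran from 0.173 to 0.716 over the other fits. Zbtb20 read 11.44, 11.38, 10.85 and 11.01 in WT and 11.25, 11.55, 10.94 and 10.92 in HNF6KO, in array order. In both groups arrays 1 and 2 were higher than arrays 3 and 4, and the group means of 11.17 ± 0.29 and 11.17 ± 0.30 (SD, n = 4) differed by -0.0063 ± 0.17 (SE; adjusted p = 0.996). The dimmer of its 2 probe sets averaged 10.21 ± 0.07 in WT and 10.33 ± 0.09 in HNF6KO, a change of 0.12 ± 0.06 (limma over all probe sets, adjusted p = 0.592).

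Among 11 measured genes fixed as other regulators of Afp, 1 fell, the targeted gene Onecut1, 0 rose and 10 did not pass. The log2 change was below 0 for 10 of the 11 (9 under quantile normalization, median centring or cyclic loess), with a median of -0.19, and 57.4% of all genes were below 0. The unadjusted p was under 0.05 for 3 of the 11 and the groups did not overlap for 3, Onecut1 among both. Over all genes these shares were 9.51% and 5.67%. The list holds the liver factors known to activate Afp, such as HNF4A, FOXA1 and C/EBPα. Afp, which persisted in the mouse strain that revealed ZHX2, did not pass here (log2 change 0.06 ± 0.06, limma adjusted p = 0.856). From a list of other genes known to respond to ZHX2 in mouse liver, Lpl and Cyp4a12a were analysed. Lpl, encoding lipoprotein lipase, was higher on the HNF6KO arrays (9.46 to 10.61) than on the WT arrays (7.05 to 7.73), with a log2 change of 2.41 ± 0.25 (adjusted p = 0.00773). Lpl was put on this list with that rise already known. Cyp4a12a, a male-type P450, changed by 0.04 ± 0.21 (adjusted p = 0.981).

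The imprinted growth genes Igf2 and Dlk1 did not pass. Igf2 encodes the fetal insulin-like growth factor, and read 6.34, 6.59, 6.50 and 6.65 in WT and 6.55, 6.57, 6.62 and 6.50 in HNF6KO. The HNF6KO values lay within the WT range, and the log2 change was 0.04 ± 0.07 (SE; limma adjusted p = 0.921), with the sign turned when WT array 1 was left out (-0.018). Dlk1 encodes a transmembrane protein of hepatoblasts and preadipocytes, and read 7.67, 7.50, 7.47 and 7.67 in WT and 7.59, 7.48, 7.42 and 7.16 in HNF6KO, in array order. The groups overlapped and HNF6KO array 4 was lowest, for a log2 change of -0.16 ± 0.09 (adjusted p = 0.665).

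The microRNA gene Mir483 lies inside an Igf2 intron and has a probe set of its own, which reads the precursor and not the mature arms. It was added to the list because it is transcribed with Igf2. It read 7.97, 7.99, 7.82 and 8.04 in WT and 8.28, 8.03, 7.60 and 7.43 in HNF6KO. HNF6KO array 1 was above the WT range, array 2 within it and arrays 3 and 4 below it. Against WT, the HNF6KO level differed by 0.17 for the first pair of array numbers and by -0.41 for arrays 3 and 4, with a log2 change of -0.12 ± 0.17 over all arrays (adjusted p = 0.893). Its mature arms in RefSeq (GRCm38.p6) are shown to identify the transcript, with the seed, bases 2 to 8, in capitals.
mmu-miR-483-3p: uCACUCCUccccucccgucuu
mmu-miR-483-5p: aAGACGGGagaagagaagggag

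Other imprinted growth genes gave 0 risen, 0 fallen and 12 not past the threshold of 12 measured, with a median log2 change of 0.013. The smallest p was that of Meg3, the maternally expressed noncoding RNA of the imprinted domain that also holds Dlk1. Meg3 read 8.63, 8.48, 7.67 and 7.65 in WT and 6.97, 7.02, 6.92 and 6.87 in HNF6KO, in array order. The 4 HNF6KO arrays were close to each other and all below WT, whose arrays 1 and 2 were higher than arrays 3 and 4. The log2 change was -1.16 ± 0.22 (SE; limma adjusted p = 0.0806). It passed in a fit with a term that sets arrays 1 and 2 apart from 3 and 4 (adjusted p = 0.00998) and within each side of it (-1.56 with adjusted p = 0.0146, and -0.77 with adjusted p = 0.0181). Sgce changed by 0.27 ± 0.12 (adjusted p = 0.534) and Mest by 0.16 ± 0.08 (adjusted p = 0.622).

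In the insulin-like growth factor axis, 14 of 14 measured genes did not pass, and 0 reached an unadjusted p of 0.05 (median 0.012). The smallest p values were those of Igfals, the carrier subunit of circulating IGF complexes (0.20 ± 0.09, adjusted p = 0.527), the receptor substrate Irs1 (-0.37 ± 0.20, adjusted p = 0.624) and the binding protein Igfbp4 (-0.10 ± 0.06, adjusted p = 0.673).

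Gpc3 was level on 7 arrays and high on 1. It encodes a heparan sulfate proteoglycan of the cell surface that is abundant in fetal liver and in hepatocellular carcinoma. It read 5.86, 5.84, 5.82 and 5.81 in WT and 5.76, 5.79, 5.83 and 6.98 in HNF6KO, in array order on the log2 scale. The first 3 HNF6KO arrays lay within or just below the WT range, and array 4 was 1.11 above every other array. The log2 change of 0.26 ± 0.24 (SE; limma adjusted p = 0.823) became -0.033 without HNF6KO array 4.

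Cd24a encodes a glycosylated surface protein found on hepatic progenitors and on immature blood cells. It read 4.51, 4.69, 4.72 and 5.02 in WT and 5.03, 4.89, 4.92 and 5.04 in HNF6KO, in array order. WT array 4 lay among the HNF6KO arrays, and the other 3 WT arrays lay below them. The log2 change was 0.24 ± 0.10 (SE, 95% interval 0.01 to 0.46, limma adjusted p = 0.501), being 0.36 within arrays 1 and 2 and 0.11 within arrays 3 and 4. Igf2bp3 encodes an RNA-binding protein of embryonic tissue and tumours. It read 6.08, 6.17, 6.04 and 6.23 in WT and 6.12, 6.03, 6.04 and 6.01 in HNF6KO, with overlapping groups and a log2 change of -0.08 ± 0.06 (adjusted p = 0.745). Of 14 further oncofetal genes and fetal isozymes, 0 passed, and the median log2 change was -0.012. The pyruvate kinase gene Pkm changed by 0.14 ± 0.05 (adjusted p = 0.434), the glypican Gpc1 by -0.20 ± 0.08 (adjusted p = 0.510) and the chromatin protein gene Hmga2 by 0.08 ± 0.05 (adjusted p = 0.743).

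**Figure D3:**
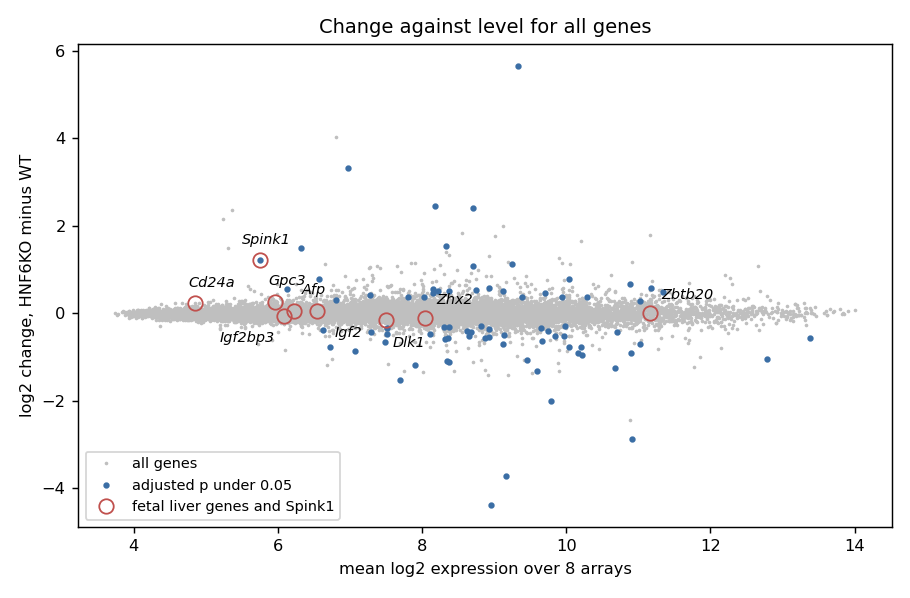
Log2 change (HNF6KO minus WT, vertical axis) against mean log2 expression over 8 arrays (horizontal axis) for 19540 genes (grey), with the 78 genes past an adjusted p of 0.05 in blue and the 9 measured genes ringed in red. Spink1 is the ringed gene that stands off the horizontal axis, and the other 8 lie between -0.16 and 0.26.

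No relative or protease partner of Spink1 passed. Of 16 measured genes for other SPINK and SPINT inhibitors and for the liver serine proteases, 1 was higher and 1 lower at an unadjusted p of 0.05. Of all genes, 9.51% reached that level. Of the 16, 12 were below the array median on all arrays, and the median log2 change was -0.011. Spink5, another Kazal-type inhibitor, was higher on each HNF6KO array (5.94 to 6.34) than on any WT array (5.75 to 5.89), with a log2 change of 0.28 ± 0.09 (SE; limma adjusted p = 0.327). Tmprss6, the hepatocyte protease that limits hepcidin, was lower on each HNF6KO array (10.56 to 10.83) than on any WT array (10.87 to 11.02), by a log2 change of -0.22 ± 0.07 (adjusted p = 0.307). Spink12 changed by -0.11 ± 0.06 (adjusted p = 0.595).

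Other markers of pancreatic acinar tissue, where Spink1 is abundant, did not pass. Of 17 measured acinar genes 0 passed and 0 reached an unadjusted p of 0.05, with a median log2 change of -0.023, and 12 were below the array median on all arrays. Their summed linear signal ran from 1344 to 1422 on the WT arrays and from 1257 to 1458 on the HNF6KO arrays. The elastase gene Cela1 changed by -0.16 ± 0.08 (adjusted p = 0.608), the chymotrypsinogen gene Ctrb1 by -0.12 ± 0.10 (adjusted p = 0.791) and the carboxypeptidase gene Cpb1 by -0.05 ± 0.05 (adjusted p = 0.793).

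Spink1 responds to interleukin-6 in human hepatocytes, and an acute phase list was read beside it. Of 22 measured genes 0 passed, and the median log2 change was 0.009, with 12 above 0, 10 below 0 and the largest at 1.18. The unadjusted p was under 0.05 for 2, both lower, against 9.51% of all genes in either direction. Crp changed by -0.68 ± 0.13 (limma adjusted p = 0.0888, or 0.0474 with the term for the array numbers), the endotoxin-binding protein gene Lbp by -0.61 ± 0.26 (adjusted p = 0.500) and the receptor gene Lifr by -0.17 ± 0.08 (adjusted p = 0.548). Single arrays differed widely within each group. The summed signal of the 22 genes read 89248, 94088, 91409 and 150208 in WT and 83693, 133553, 111212 and 93325 in HNF6KO. Among the HNF6KO arrays this sum had the same order as Spink1. Among the WT arrays it was lowest on array 1, where Spink1 was highest. The lipocalin Lcn2, chosen after its values were seen, read 8.80, 8.80, 9.63 and 13.31 in WT and 8.37, 12.24, 11.94 and 9.70 in HNF6KO. WT array 4, the highest for Lcn2, had a Spink1 value of 5.20, within the other WT arrays. Among the HNF6KO arrays, Lcn2 and Spink1 had the same order, lowest on array 1 and highest on array 2. Spink1 differed little between HNF6KO arrays 3 and 4 (6.33 and 6.32). The serum amyloid genes Saa1 and Saa3, also chosen after their values were seen, had orders that matched that of Spink1 in part. In HNF6KO, Saa1 read 8.82, 12.23, 10.65 and 8.76, highest on array 2 as Spink1 was, but lowest on array 4. Saa3 read 7.99, 8.83, 8.97 and 8.39, lowest on array 1 as Spink1 was, but highest on array 3. In WT both were highest on array 4 (12.15 and 11.21). The part of the acute phase in the Spink1 difference was not tested.

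Among markers of other cell types, the summed signals of dividing cell markers and of erythroid markers did not overlap between the groups. The summed signal of 11 measured genes of dividing cells ran from 852 to 888 in WT and from 905 to 1082 in HNF6KO. It was highest on HNF6KO array 2, where Spink1 was highest too. It was lowest on HNF6KO array 3 (905), whereas Spink1 was lowest on HNF6KO array 1. Under quantile normalization the ranges of this sum met, at 850 to 882 in WT and 879 to 1086 in HNF6KO. Of the 11 genes 0 passed, and 8 were below the array median on all arrays. The unadjusted p was under 0.05 for 4, all higher, against 9.51% of all genes in either direction. The survivin gene Birc5 changed by 0.24 ± 0.07 (adjusted p = 0.269), the topoisomerase gene Top2a by 0.27 ± 0.08 (adjusted p = 0.329) and the cyclin gene Ccna2 by 0.24 ± 0.08 (adjusted p = 0.351). Their part in the Spink1 difference was not tested. The 10 measured erythroid markers, which bear on Cd24a, summed to 1561 to 1814 in WT and 1271 to 1493 in HNF6KO, with 0 passing and a median log2 change of -0.012. The lower sum came from Alas2, and the other 9 summed to 660 to 826 in WT and 821 to 969 in HNF6KO. The heme synthesis gene Alas2 changed by -0.98 ± 0.20 (adjusted p = 0.0925), the transferrin receptor Tfrc by 0.71 ± 0.23 (adjusted p = 0.344) and Epb42 by -0.10 ± 0.04 (adjusted p = 0.532). With the term for the array numbers, Alas2 (adjusted p = 0.0296) and Tfrc (0.0101) passed, and Tfrc also passed with the array number as a replicate block (0.0267). Of the 10 markers, 7 were below the array median on all arrays, and their part in the Cd24a values was not tested.

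The remaining marker lists overlapped between the groups, with 0 genes passing in each. Biliary and progenitor markers, 8 of 11 below the array median on all arrays, summed to 2018 to 2292 in WT and 1839 to 2173 in HNF6KO. B cell markers summed to 455 to 465 and 433 to 483, and neutrophil markers to 558 to 602 and 526 to 622. Stellate cell and fibroblast markers summed to 4193 to 6989 and 4311 to 7151. Kupffer cell markers summed to 2615 to 6639 in WT and 2696 to 8586 in HNF6KO. The log2 change was above 0 for 11 of the 11 (median 0.095), against 42.6% of all genes. Markers of 1 cell type can move together, so these 11 are not separate observations. Within arrays 1 and 2, Adgre1 (-0.021) and C1qa (-0.023) were below 0 and Cd5l (0.043) was above it. Hepatocyte markers summed to 119001 to 127639 and 123391 to 131133.

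The gene whose values followed those of Spink1 most closely was Esr1, encoding estrogen receptor alpha. Likeness was taken as the root mean square difference between log2 values over the 8 arrays after each gene's mean was subtracted, and it was 0.174 for Esr1. Esr1 read 8.09, 8.52, 8.04 and 8.45 in WT and 9.01, 10.26, 9.48 and 9.59 in HNF6KO, in array order. Both genes were lowest among HNF6KO arrays on array 1 and highest on array 2. Esr1 differed by 1.31 ± 0.24 (SE) on the log2 scale. These genes were picked for their likeness to Spink1, group difference included, so their differences are a description with no test. The next were the antiproliferative gene Btg2 (0.307), the glutathione transferase gene Gstm2 (0.309) and the interferon-induced gene Ifit3 (0.311). Their log2 changes were 0.67 ± 0.16 for Btg2, 0.78 ± 0.12 for Gstm2 and 0.73 ± 0.24 for Ifit3. The Gstm2 probe set can pick up related transferases. The gene nearest to Afp was Ttc5 (0.0286), which was as flat (log2 change 0.04 ± 0.06).

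**Figure D4:**
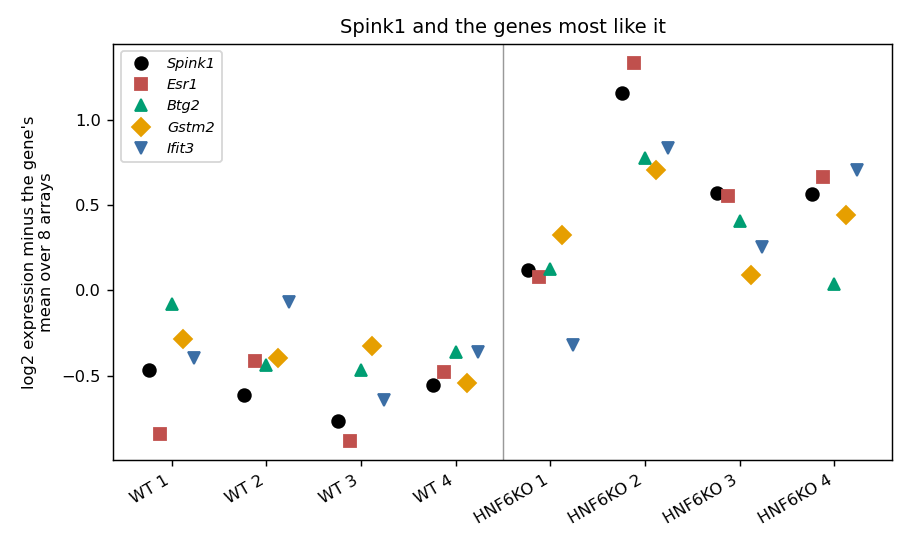
Log2 expression minus each gene's mean over 8 arrays (vertical axis) on each array (horizontal axis) for Spink1 (black) and the 4 genes with the smallest root mean square difference from it. Spink1 and Esr1 lie close together on each HNF6KO array and reach their highest values on HNF6KO array 2.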

How the data were processed

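Liver RNA from 4 WT and 4 HNF6KO samples was extracted with Trizol and labelled with biotin with a whole-transcript protocol, per the labels. The table that the authors deposited has 1 value per probe set and array, taken as log2 expression because the values lie between 3.69 and 14.11 and the array medians between 6.89 and 6.97. No source used here states the log base, background correction or normalization, and a shift shared by most transcripts would be hidden if arrays were scaled to each other. Of 22725 probe sets, 21113 had 1 gene symbol, 43 several and 1569 none here. For 883 genes the brightest of several probe sets was used, leaving 19540 genes.

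The groups were compared with limma 3.58.1 (lmFit, eBayes; R 4.3.3). P-values were adjusted by Benjamini-Hochberg over every gene, and 0.05 was the threshold. The step was tested on simulated data. The number of arrays limits the precision. Members and gene lists were chosen with earlier results of these data known, as was the separation of arrays 1 and 2 from 3 and 4, which no label names as a batch. Named genes were the members, genes of each list past the threshold or else up to 3 with the smallest p, and the genes nearest in pattern to Spink1 (4) and Afp (1). No set test was run. Array pairs correlated at 0.987 to 0.997, and none was a copy.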

Additional observations from a re-analysis of the deposited data

Results flagged for a closer look

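Among 61 named genes, 7 of 122 groups of 4 arrays held an array whose gap to its neighbour was above Dixon's 95% critical value, as a share of the group's range, and chance gives about 1 in 20 such groups. Gpc3 on HNF6KO array 4 read 6.98, with a gap of 0.943 of the range. That array was at least 1 log2 unit above the other 7 for 4 genes, namely Sult3a2 (9.62), Sult3a1 (9.11), Nqo1 (8.97) and Gpc3, and such a gap was seen for 1 to 6 genes on each of the other arrays. The 2 sulfotransferases are close relatives whose probe sets can share signal, and Nqo1 encodes a quinone reductase. Afp (6.25) and Igf2 (6.50) on HNF6KO array 4 were within the values of the other arrays, and Dlk1 (7.16) was at its lowest.

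The other such values were those of Sgce on HNF6KO array 2 (6.09, low), Igfals on HNF6KO array 3 (10.15, low), Spink12 on WT array 4 (5.47, high), Ly6g on WT array 1 (4.77, low), Col1a2 on WT array 2 (7.82, low) and Lrat on WT array 3 (9.15, high).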

How the results depend on the processing

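With each array left out in turn, the number of genes past the threshold ran from 16 to 79 (main 78). In the same fits, members ran from 0 to 1, pathway-list genes from 1 to 2, and the Spink1 change from 1.02 to 1.36. The 2 pathway-list genes of the main fit were Onecut1, the targeted gene, and Lpl, listed with its rise already known. That count is therefore a description. The gene count was 202 with array quality weights, 245 with the split of arrays as a term, 22 within arrays 1 and 2, 14 at a threshold of 0.01 and 162 at 0.1. With the array number as a replicate block it was 125, and Spink1 kept its call (adjusted p = 0.0431). Same-numbered arrays of the 2 groups correlated at 0.438, 0.167, 0.506 and 0.0233 in their deviations, and the numbers were not taken as pairs. Differently numbered arrays within 1 and 2, or within 3 and 4, correlated at 0.240 to 0.445 between groups. Across that split the correlations ran from -0.4995 to 0.0248. The main fit has no term for the split. No member passed (0) with median centring (Spink1 change 1.21), the intensity trend (1.20), arrays 1 and 2 alone (1.18) or the threshold of 0.01 (1.20), nor among genes above the 40th percentile, a filter that removes Spink1. Pathway-list genes numbered 4 with the split as a term, 1 at 0.01 and 4 at 0.1. Sign changes were confined to uncalled genes. They were -0.017 for Alb under quantile normalization and 0.057 for Zbtb20 with the mean of probe sets. Within arrays 1 and 2 they were -0.070 for Gpc3, 9e-04 for Fcer2a, -0.0080 for Ms4a1, -0.021 for Adgre1, -0.023 for C1qa and 0.17 for Mir483. Within arrays 3 and 4 they were -0.014 for Igf2, 5e-04 for Zbtb20, 0.17 for Afm and -0.0083 for Col3a1. With arrays left out, changes ran from -0.025 to 0.52 for Adgre1, -0.18 to 0.029 for Afm, -0.020 to 0.43 for C1qa, -0.094 to 0.51 for Cd5l, -0.033 to 0.37 for Gpc3, -0.018 to 0.084 for Igf2, -0.27 to 0.013 for Mir483 and -0.13 to 0.084 for Zbtb20. The cause was not tested. Of the 9 measured members, 5 lay below the array median on all arrays, and for such dim genes a fold change can show less.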
